A study of Homo sapiens with 12 samples.

Results

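Integrin and laminin genes were followed in docetaxel-resistant and parental cells of DU145 and PC3, established human lines that were isolated from metastases of prostate carcinoma. The genes were chosen by name: protein-coding genes whose symbol begins with ITGA, ITGB, LAMA, LAMB or LAMC, leaving out integrin-binding and integrin-like genes and antisense genes. This gave 38 of the 38611 genes listed, made up of 18 integrin alpha subunits, 8 integrin beta subunits and 12 laminin chains, of which 5 are alpha, 4 beta and 3 gamma chains. Docetaxel, a taxane, binds microtubules and blocks mitosis. Resistant DU145 cells came from cultures whose docetaxel was raised in doublings from 10 nm/ml until the half-maximal inhibitory concentration was 1800 nm/ml, and parental DU145 cells are labelled as control. Resistant PC3 cells were raised the same way from 0.5 nm/ml to a half-maximal inhibitory concentration of 15 nm/ml, and parental PC3 cells are again the control. The doses are in the submitters' unit, whose meaning is not stated, so they are not compared between lines. All cells grew in the same serum-containing medium. The labels do not say whether a resistant line is 1 clone, whether docetaxel was present at harvest, or whether the 3 libraries per group are 3 cultures. The p-values therefore reflect the variation among libraries, which could be purely technical.

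Laminins are trimers of 1 alpha, 1 beta and 1 gamma chain, secreted by epithelial cells into the basement membrane. Laminin-332 contains the chains encoded by LAMA3 and LAMB3 and anchors basal epithelial cells, while laminin-511 combines LAMA5, LAMB1 and LAMC1. Integrins are pairs of 1 alpha and 1 beta subunit that bind the matrix outside the cell and the actin or keratin cytoskeleton inside it. Alpha3beta1, alpha6beta1 and alpha6beta4 are the main epithelial laminin receptors, alpha1beta1 and alpha2beta1 bind collagens, and alpha5beta1 and the alphav integrins bind fibronectin, vitronectin and other ligands with an Arg-Gly-Asp motif. In normal prostate, laminin-332 and the beta4 subunit are known from basal cells, and their loss is a known feature of prostate carcinoma.

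Levels are given as FPKM, fragments per kilobase of gene scaled to library size, which the authors derived from their counts and which allow genes to be compared per length. Fold changes, standard errors (SE) and adjusted p-values come from edgeR's quasi-likelihood test on the deposited counts over 24128 genes, with Benjamini-Hochberg adjustment, and a gene is said to have risen or fallen at an adjusted p under 0.05. The 12 libraries held 62513103 to 72530254 counts, and the 38 genes took 0.438% to 0.677% of them. CTNNA1, known as deleted in PC3, averaged 0.244 FPKM in resistant PC3 and 0.328 in parental PC3, but 43.8 in resistant DU145 and 60.4 in parental DU145, as the line labels require. The 5 epithelial markers summed to 393 to 397 FPKM in resistant DU145 against 256 to 261 in parental DU145, and to 195 to 209 in resistant PC3 against 346 to 351 in parental PC3. Of 6 leukocyte markers, CD68 alone reached 1 FPKM, and PTPRC was at 0 in all DU145 libraries and averaged 0.0166 FPKM or less in PC3. In resistant PC3, library 1 stood apart from libraries 2 and 3 by chi-square per gene (33.8 to each), and these were closer to each other (16.7). The SD of log2 differences set it apart less, at 0.291 to library 2 and 0.274 to library 3, against 0.269 between those. Without library 1, 25 of the 36 integrin and laminin genes tested still passed in PC3, as with it.

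In resistant DU145, 12 of the 36 integrin and laminin genes tested rose, 9 fell and 15 did not pass. Over all genes tested, 39.6% passed (18.9% higher and 20.7% lower). The median log2 change of the 36 was -0.00, and that of all genes was 0. In resistant PC3, 10 rose, 15 fell and 11 did not pass, where 44.0% of all genes passed (22.4% higher and 21.6% lower). Their median log2 change was -0.14, against 0 for all genes. Without the 11 genes under 0.25 FPKM in every group, which include low-count folds, the median was 0.12 in DU145 and -0.55 in PC3. Laminin chains passed in 10 of 11 cases in DU145 and in 8 of 11 in PC3. Alpha subunits passed in 6 of 17 cases in DU145 and in 12 of 17 in PC3, and beta subunits in 5 of 8 in each line. Calls of at least 1 log2 unit numbered 7 higher and 6 lower in DU145, where 13.0% of all genes had one (7.19% higher and 5.80% lower). In PC3 they numbered 5 higher and 11 lower, where 17.1% of all genes had one (7.16% higher and 9.89% lower). Of the 5 rises in PC3, those of ITGAD, ITGB6 and LAMA2 were of genes under 0.25 FPKM in every group. LAMA1 averaged 0.047 FPKM in resistant PC3, and LAMB3 was the other rise. Of the 6 falls in DU145, ITGAX and ITGB7 were under 0.25 FPKM in every group. ITGAM and LAMA4 averaged 0.0452 FPKM or less in both DU145 groups. In counts scaled for edgeR, resistant and parental libraries did not overlap for 24 of the 36 genes in DU145 and 29 in PC3. By the same measure, 51.2% and 54.4% of all genes did not overlap. For single genes, overlap is described below in FPKM, which can differ: LAMB1 in PC3 overlapped in FPKM but not in scaled counts.

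Of the 38 genes, 11 stayed under 0.25 FPKM in every group and are described only by their counts. The other 27 hold 19 of the DU145 calls (12 higher and 7 lower) and 22 of the PC3 calls (7 higher and 15 lower). Of these 27, 25 reached 1 FPKM in at least 1 group and 15 reached 10 FPKM. The spread between libraries was small: over the 77 pairs of a gene and a group with a mean of at least 1 FPKM, the median coefficient of variation was 3.92% and the highest was 16.8%, for ITGB4 in resistant PC3.

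**Figure D1:**
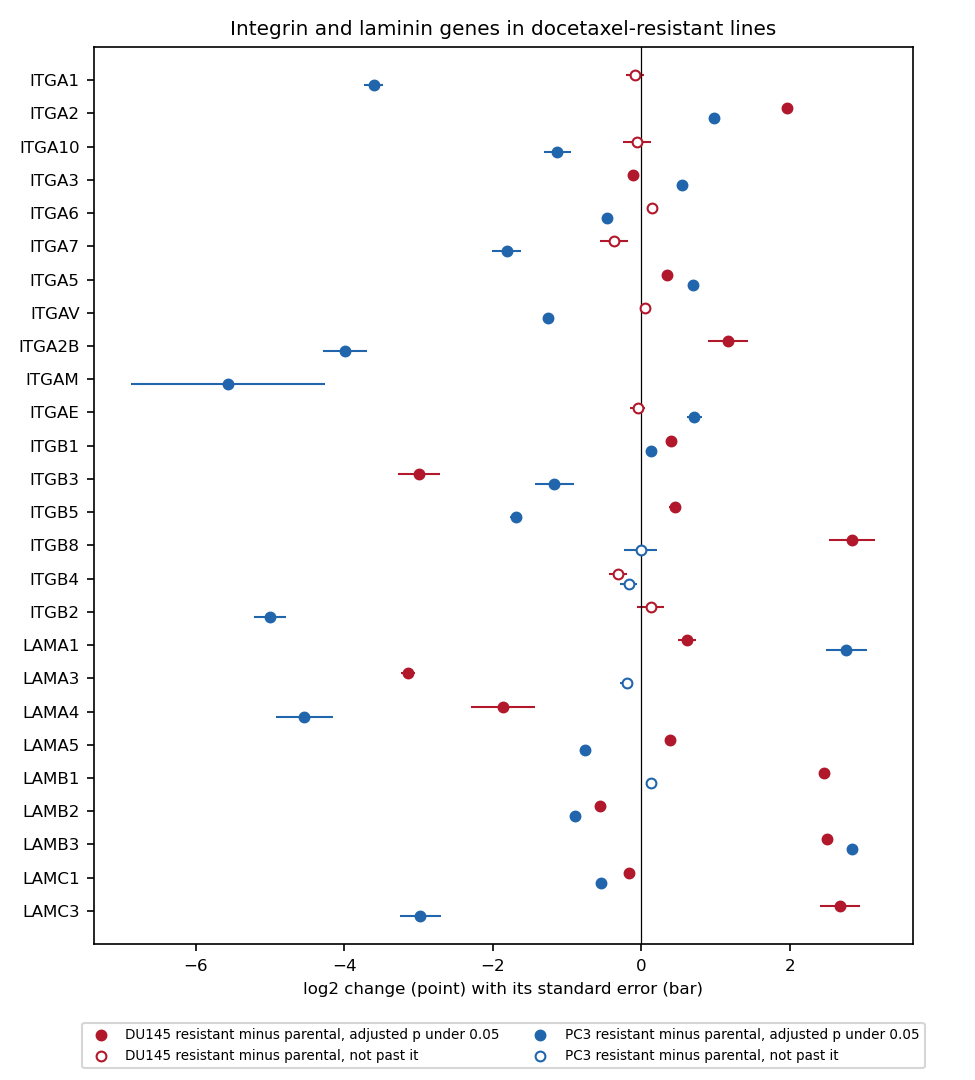
Log2 change with resistance (points) with its standard error (bars) for 26 integrin and laminin genes at 0.25 FPKM or more in at least 1 group, in DU145 (red) and PC3 (blue); filled points passed an adjusted p of 0.05. LAMB3 sits at 2.50 in DU145 and 2.83 in PC3, while LAMC3, at 2.67 and -2.98, sits on opposite sides of 0; ITGAM has no DU145 point because resistant DU145 had no counts.

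LAMB3, which encodes the beta3 chain of laminin-332, rose in both lines, and in each its rise in mean FPKM was the largest of the 38 genes. It measured 155, 159 and 152 FPKM in resistant DU145, against 26.1, 27.6 and 30.4 FPKM in parental DU145. Resistant PC3 held 82.2, 82.2 and 85.0 FPKM, and parental PC3 held 12, 11.5 and 12.4 FPKM. Every resistant library lay far above every parental library of its line. The fold was 5.64 in DU145 (log2 2.50 ± 0.05 SE, adjusted p = 9.04e-15) and 7.13 in PC3 (2.83 ± 0.05, 1.84e-15). The rise was larger in PC3 by 0.34 ± 0.06 log2 units (adjusted p = 0.000487). Ranked by mean FPKM among 38540 genes, LAMB3 stood at place 148 in resistant DU145 against 1519 in parental DU145, and at 411 in resistant PC3 against 3851 in parental PC3. In bulk RNA, a change in the share of cells that express a gene and a change in RNA per cell cannot be told apart.

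LAMA3 did not follow LAMB3. LAMA3, the alpha3 chain, fell in DU145: 1.58, 1.38 and 1.14 FPKM in resistant cells stood against 11.7, 11.9 and 13.3 FPKM in parental cells. The fall was 8.83-fold (log2 -3.14 ± 0.10, adjusted p = 2.98e-11) and every resistant library was far below the parental range. In PC3, LAMA3 measured 16.9, 16.5 and 15.5 FPKM in resistant cells and 19.4, 18.6 and 19.7 FPKM in parental cells, again without overlap. That log2 change, -0.20 ± 0.09, did not pass (adjusted p = 0.0885), but DESeq2 gave 0.0395, limma on log2(FPKM + 1) gave 0.0212 and a fit of the PC3 groups alone gave 0.00282. Under the other alternatives it did not pass, with an adjusted p of up to 0.274. The changes of LAMA3 differed between the lines by 2.94 ± 0.13 log2 units (PC3 minus DU145; adjusted p = 8.08e-10).

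The ratio of LAMB3 to LAMA3 per length was 97.9, 115 and 134 in the resistant DU145 libraries, against 2.23, 2.33 and 2.29 in the parental ones. In PC3 it was 4.85, 4.99 and 5.49 in resistant cells, against 0.619, 0.622 and 0.627 in parental cells. In parental PC3 LAMB3 was thus less abundant per length than LAMA3, and in the other 3 groups it was more abundant. These are ratios of messages and give no count of assembled trimers.

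**Figure D2:**
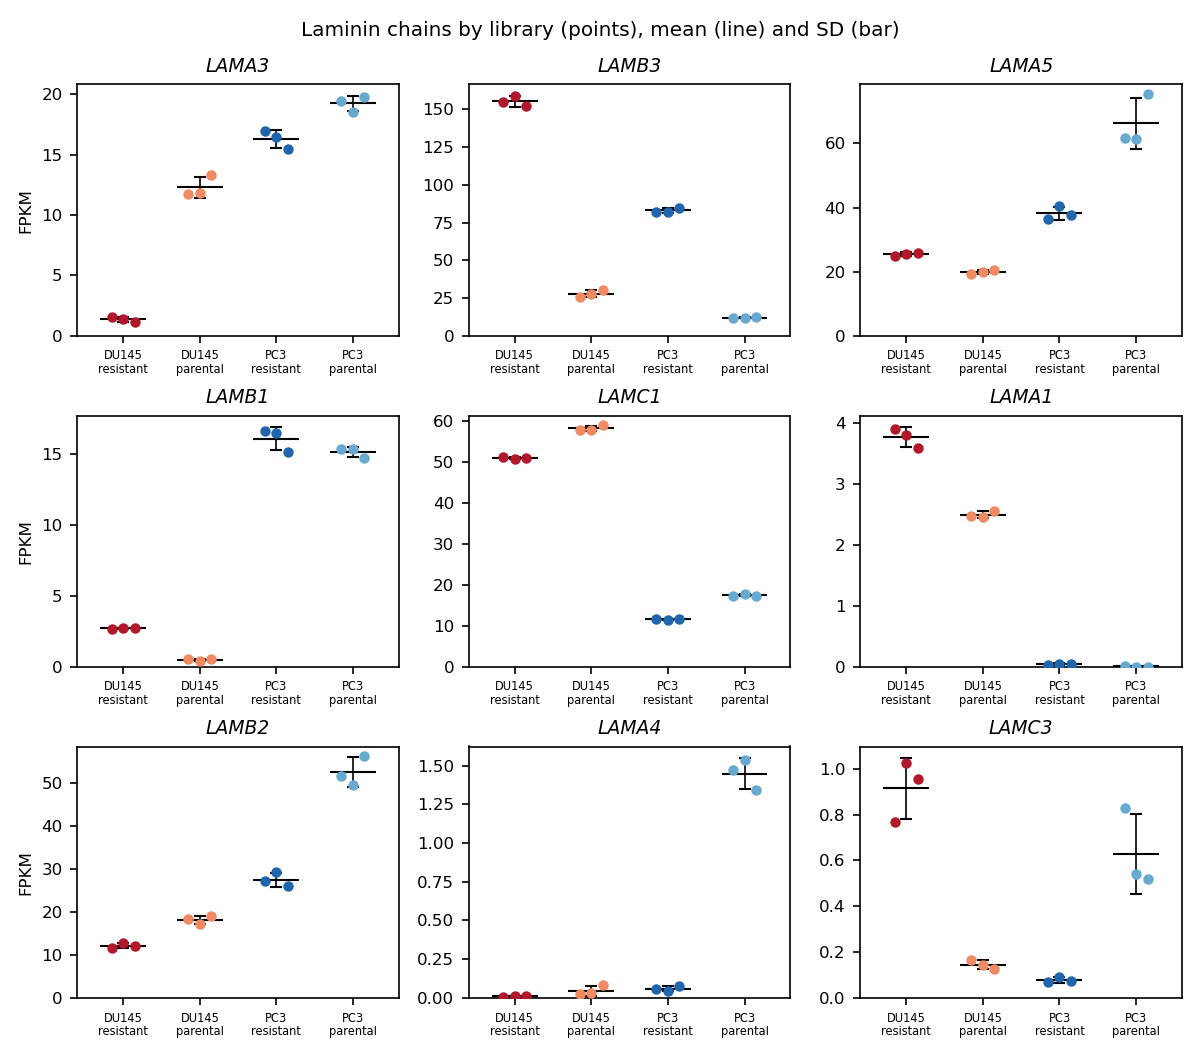
FPKM of 9 laminin chains in each library (points), with the group mean (line) and SD (bar), in resistant and parental DU145 and resistant and parental PC3; each panel has its own axis from 0. LAMB3 is higher in the resistant libraries of both lines, LAMA3 is at 1.14 to 1.58 FPKM in resistant DU145 and above 11 FPKM in the other groups, and LAMB1 is above 14 FPKM in both PC3 groups.

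Promoter windows from RefSeq (GRCh38.p14) cover 250 bases before to 50 bases after a transcript start, and 33 windows matched 26 of the 38 genes. The windows shown are those of LAMB3 and ITGA2, which rose in both lines, and of LAMA3, which fell in DU145. Each is printed 5′ to 3′ on the strand of its gene. Capitals mark matches on either strand to TGANTCA (the AP-1 motif), GGGCGG (the Sp1 GC box), GGAATG (the TEAD motif) and CAGGTG (the E-box bound by ZEB and SNAI factors). The LAMB3 window is at chr1:209651325-209651624 on the minus strand, 1051 bases inside the gene start that the files give. The LAMA3 window is at chr18:23872770-23873069 on the plus strand, 183577 bases inside the gene start of the files, and belongs to a shorter transcript; the deposited counts are per gene and do not separate transcripts. The ITGA2 window is at chr5:52989102-52989401 on the plus strand.
LAMB3: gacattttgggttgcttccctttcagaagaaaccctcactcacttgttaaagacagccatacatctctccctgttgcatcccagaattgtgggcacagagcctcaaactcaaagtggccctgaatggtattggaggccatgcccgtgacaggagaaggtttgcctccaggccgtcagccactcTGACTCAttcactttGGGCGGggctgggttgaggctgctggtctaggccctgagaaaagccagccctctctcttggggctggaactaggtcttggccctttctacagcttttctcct
LAMA3: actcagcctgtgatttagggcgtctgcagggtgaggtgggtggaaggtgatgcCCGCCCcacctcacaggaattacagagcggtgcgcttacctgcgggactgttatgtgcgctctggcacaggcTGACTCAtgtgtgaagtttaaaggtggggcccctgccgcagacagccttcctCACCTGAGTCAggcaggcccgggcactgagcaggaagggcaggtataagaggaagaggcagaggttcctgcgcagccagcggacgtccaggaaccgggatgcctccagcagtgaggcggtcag
ITGA2: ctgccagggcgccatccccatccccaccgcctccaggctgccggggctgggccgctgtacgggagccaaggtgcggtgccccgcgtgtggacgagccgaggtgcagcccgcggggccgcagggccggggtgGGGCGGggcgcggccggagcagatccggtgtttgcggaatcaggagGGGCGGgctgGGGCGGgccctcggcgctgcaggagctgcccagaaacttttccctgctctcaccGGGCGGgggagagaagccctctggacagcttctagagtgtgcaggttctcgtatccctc
In the LAMB3 window the AP-1 match starts at -67 from the transcript start and the GC box at -52. The LAMA3 window holds AP-1 matches at -125 and -69, a GC box on the opposite strand at -197, and an E-box at -73 that shares bases with the AP-1 match at -69. The ITGA2 window holds GC boxes at -119, -73, -63 and -9 and no AP-1 match. The AP-1 letters occur in 7.71% of all 35116 RefSeq windows of this length and in 3 of the 33 windows here (9.09%). Those windows belong to 3 of the 26 genes: LAMB3, LAMA3 and ITGA5. The GC box occurs in 45.0% of all windows, the E-box in 20.6% and the TEAD motif in 14%. LAMB3 has other RefSeq starts upstream, whose windows hold a GC box and no AP-1 match, so the window shown is the sole LAMB3 window with AP-1. The window at the gene start of the files also holds an E-box at -218. Such matches describe the letters in these windows and are not measured binding sites.

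Among the chains of laminin-511 and laminin-521, LAMB1 rose in DU145, LAMB2 and LAMC1 fell in both lines, and LAMA5 rose in DU145 and fell in PC3. LAMA5, the alpha5 chain, was the most abundant alpha chain in all 4 groups. It measured 24.9, 25.6 and 26.0 FPKM in resistant DU145 and 19.2, 19.8 and 20.6 FPKM in parental DU145, a 1.31-fold rise (log2 0.39 ± 0.07, adjusted p = 0.000289). In PC3 it measured 36.5, 40.5 and 37.7 FPKM in resistant cells and 61.8, 61.4 and 75.5 FPKM in parental cells, a 1.69-fold fall (-0.76 ± 0.07, 2.97e-07). Neither pair of groups overlapped. LAMA5 shares 908 bases with ADRM1, on the opposite strand. ADRM1 rose in DU145 (0.30 ± 0.07), as LAMA5 did, and in PC3 (0.84 ± 0.07), where LAMA5 fell. LAMB1, the beta1 chain, measured 2.66, 2.76 and 2.71 FPKM in resistant DU145, against 0.529, 0.437 and 0.531 FPKM in parental DU145, with no overlap. That rise was 5.52-fold (2.46 ± 0.07, 2.21e-13). Both PC3 groups had more, with 16.6, 16.5 and 15.2 FPKM in resistant cells and 15.3, 15.3 and 14.7 FPKM in parental cells, which overlapped (0.13 ± 0.06, adjusted p = 0.0951). Without the third resistant PC3 library that adjusted p was 0.04, and with the PC3 groups fitted alone it was 0.0464. Under the other alternatives LAMB1 did not pass in PC3, with an adjusted p of up to 0.376. LAMC1, the gamma1 chain shared by most laminins, fell slightly in both lines. It measured 51.2, 50.9 and 50.9 FPKM in resistant DU145 and 57.9, 57.9 and 59.0 FPKM in parental DU145 (-0.17 ± 0.03, 0.000585). In PC3 it measured 11.8, 11.5 and 11.6 FPKM in resistant cells and 17.3, 17.7 and 17.4 FPKM in parental cells (-0.55 ± 0.03, 1.4e-09). LAMB2, the beta2 chain of laminin-521, also fell in both, to 12.1 ± 0.5 FPKM in resistant DU145 against 18.2 ± 0.9 in parental DU145, and to 27.4 ± 1.6 in resistant PC3 against 52.4 ± 3.5 in parental PC3 (SD, n = 3 each; log2 -0.56 ± 0.06 and -0.90 ± 0.06).

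LAMA1, LAMA4 and LAMC3 were scarce in at least 1 line. LAMA1, the alpha1 chain of early basement membranes, was a DU145 message: 3.91, 3.80 and 3.59 FPKM in resistant cells and 2.47, 2.46 and 2.57 FPKM in parental cells, without overlap. It rose 1.53-fold there (log2 0.62 ± 0.12, adjusted p = 0.000753). PC3 held 154 LAMA1 counts over 3 resistant libraries and 22 over 3 parental ones, under 0.06 FPKM in each library. The count model called that difference (2.76 ± 0.27, 4.92e-07), but limma on log2(FPKM + 1) did not (adjusted p = 0.486), and without the first parental PC3 library it was 3.42. LAMA4, the alpha4 chain typical of mesenchymal and vascular basement membranes, was above 1 FPKM in parental PC3 alone. It measured 0.0564, 0.0465 and 0.0782 FPKM in resistant PC3 and 1.47, 1.53 and 1.34 FPKM in parental PC3, a 23.2-fold fall (-4.54 ± 0.39, 7.9e-08). In DU145 it had 28 counts over the resistant libraries and 104 over the parental ones, at 0.00883, 0.0130 and 0.0141 FPKM and at 0.0245, 0.0296 and 0.0814 FPKM (-1.87 ± 0.43, 0.00228). The DU145 call was lost with the DU145 groups fitted alone (adjusted p = 0.0785) and with limma on log2(FPKM + 1) (adjusted p = 0.569). Without the third parental library the change was -1.14. LAMC3, the gamma3 chain, rose in one line and fell in the other. It averaged 0.915 ± 0.134 FPKM in resistant DU145 and 0.145 ± 0.020 in parental DU145, and 0.0778 ± 0.0114 in resistant PC3 and 0.629 ± 0.174 in parental PC3 (SD, n = 3 each). Its log2 changes were 2.67 ± 0.27 and -2.98 ± 0.27.

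Beside the fall of LAMA4 in PC3, 2 of the 7 tested markers of fibroblasts and smooth muscle, COL1A1 and COL3A1, fell there and 5 did not pass. The sum over the 8 listed markers was 1.31 to 2.07 FPKM in resistant PC3 against 12.9 to 13.6 in parental PC3, and DES was at 0 in both groups. Most of it was COL1A1, at 1.24 ± 0.16 FPKM in resistant PC3 and 11.4 ± 0.6 in parental PC3, while DCN and LUM stayed at 0.135 FPKM or less. The 6 endothelial markers measured summed to 7.66 to 11.1 FPKM in resistant PC3 and 27.3 to 35.8 in parental PC3, mostly from KDR, while CDH5 stayed at 0.00473 FPKM or less. Of the 5 endothelial markers tested, KDR fell, PECAM1 and VWF rose and 2 did not pass. PECAM1 averaged 3.42 ± 0.49 FPKM in resistant PC3 and 2.35 ± 0.09 in parental PC3 (log2 0.58 ± 0.20), and VWF averaged 0.0217 FPKM in resistant PC3 and was listed at 0 in parental PC3. The part of these markers in the LAMA4 result was not tested.

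Seen as shares of each chain type's summed FPKM, LAMB3 held more of the beta chain message in resistant than in parental cells of both lines. It made up 91.3% ± 0.2 of beta chain messages in resistant DU145 and 59.9% ± 1.6 in parental DU145, and 65.6% ± 1.6 in resistant PC3 and 15.1% ± 0.2 in parental PC3 (SD, n = 3 each). LAMB2 fell to 7.12% in resistant DU145 against 39.0% in parental DU145, and to 21.7% in resistant PC3 against 65.9% in parental PC3. Among alpha chains, LAMA3 held 4.45% ± 0.76 in resistant DU145 and 35.3% ± 0.9 in parental DU145, with LAMA5 at 82.9% and 57.0%. In PC3 the LAMA3 share was 29.8% ± 1.6 in resistant cells and 22.2% ± 1.6 in parental cells. The summed beta chains reached 170 FPKM in resistant DU145, against 46.7 in parental DU145, and 127 in resistant PC3, against 79.5 in parental PC3. The summed alpha chains instead were 30.7 FPKM in resistant DU145 and 34.8 in parental DU145, and 54.7 in resistant PC3 and 87.0 in parental PC3.

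**Figure D3:**
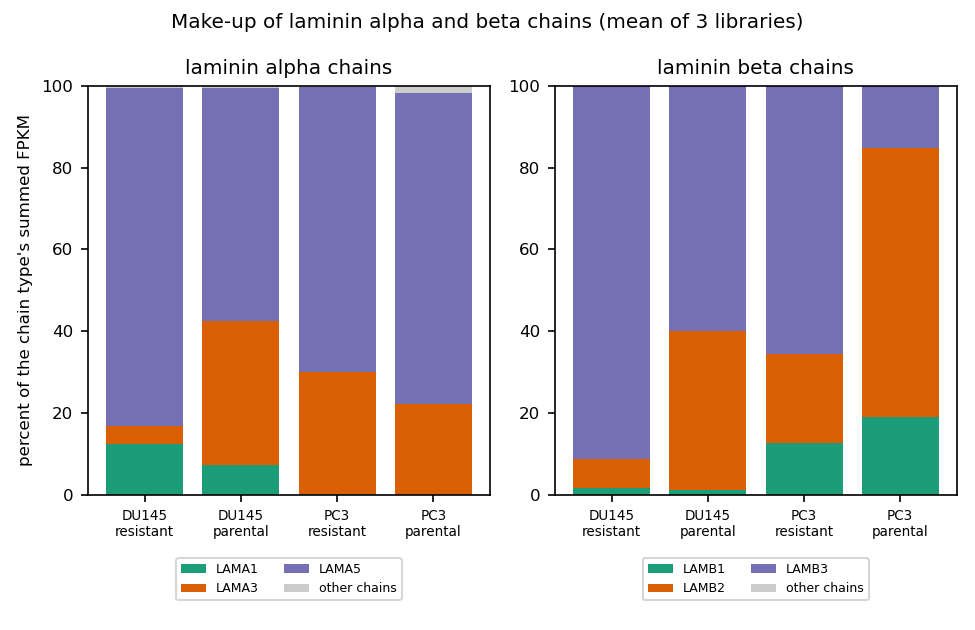
Share of the summed FPKM of laminin alpha and beta chains (mean of 3 libraries per group) held by the named chains, in resistant and parental DU145 and resistant and parental PC3. The LAMB3 share is 91.3% in resistant DU145 against 59.9% in parental DU145, and 65.6% in resistant PC3 against 15.1% in parental PC3.

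Among collagen-binding integrins, ITGA2 rose in both lines and ITGA1 fell in PC3. ITGA2, the alpha2 subunit, measured 25.6, 25.5 and 23.5 FPKM in resistant DU145 and 6.05, 6.44 and 7.10 FPKM in parental DU145. Resistant PC3 held 44.5, 42.1 and 40.4 FPKM and parental PC3 21.4, 22.7 and 22.2 FPKM. No resistant library overlapped the parental range of its line. ITGA2 rose 3.87-fold in DU145 (log2 1.95 ± 0.06, adjusted p = 7.27e-13) and 1.97-fold in PC3 (0.98 ± 0.06, 9.62e-10), and the changes differed by -0.98 ± 0.08 (PC3 minus DU145, adjusted p = 6.19e-08). ITGA1, the alpha1 subunit, measured 0.503, 0.512 and 0.442 FPKM in resistant PC3 and 5.84, 6.06 and 6.32 FPKM in parental PC3. Its fall was 12.2-fold (-3.61 ± 0.13, 4.69e-12). In DU145 ITGA1 was low throughout, with 0.410, 0.478 and 0.466 FPKM in resistant cells and 0.440, 0.608 and 0.415 FPKM in parental cells, which overlapped (-0.09 ± 0.12, adjusted p = 0.645). ITGA1 contains the gene PELO on the same strand, so reads could be split between them. PELO itself measured 11.4 FPKM in resistant PC3 and 10.0 in parental PC3 (0.23 ± 0.09, adjusted p = 0.0585), and it rose in DU145 (0.40 ± 0.09), where ITGA1 did not pass. ITGA1 and ITGA2 are neighbours on chromosome 5, at 52787916 to 52959209 and 52989340 to 53094779, 30.1 kb apart with no listed gene between. The ratio of ITGA2 to ITGA1 per length averaged 87.3 in resistant PC3 and 3.64 in parental PC3, and 55.4 in resistant DU145 and 13.8 in parental DU145. ITGA10, the cartilage collagen receptor subunit alpha10, measured 1.61, 1.71 and 1.41 FPKM in resistant PC3 and 3.57, 2.96 and 4.11 FPKM in parental PC3, a 2.19-fold fall (-1.13 ± 0.18, 7.34e-05). In DU145 it overlapped, at 0.416, 0.280 and 0.329 FPKM in resistant cells and 0.327, 0.422 and 0.341 FPKM in parental cells (-0.06 ± 0.19, adjusted p = 0.867).

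Of the subunits of the epithelial laminin receptors, ITGB1, ITGA3 and ITGA6 were among the most abundant integrins in all groups, and ITGB4 only in PC3. ITGA3, ITGA6 and ITGB4 changed by under 1 log2 unit in both lines. ITGA3, the alpha3 subunit that binds laminin-332 and laminin-511, averaged 82.0 ± 1.3 FPKM in resistant DU145 and 90.5 ± 2.1 in parental DU145 (log2 -0.12 ± 0.03, adjusted p = 0.0043). In PC3 it went the other way, with 91.9 ± 2.0 FPKM in resistant cells and 65.0 ± 0.7 in parental cells (0.54 ± 0.03, 5.01e-10). ITGA6, the alpha6 subunit, averaged 68.5 ± 1.6 FPKM in resistant PC3 and 96.9 ± 4.5 in parental PC3 (-0.46 ± 0.06, 5.05e-06), and 30.8 ± 1.2 in resistant DU145 and 28.3 ± 2.2 in parental DU145 (0.15 ± 0.06, adjusted p = 0.0556). The DU145 change of ITGA6 passed without the third resistant library (0.0274) and without the first parental library (0.0072). It also passed in DESeq2 (0.023), with RLE scaling (0.0454) and with the DU145 groups fitted alone (0.0419). ITGA6 did not pass there without a filter (0.0626) or with limma at either pseudocount (0.103 and 0.1). Nor did it pass without any 1 of the other DU145 libraries (0.0796 to 0.228). ITGB4, the hemidesmosome subunit that pairs with alpha6, did not pass in either line. It measured 4.63, 4.96 and 4.94 FPKM in resistant DU145 and 5.73, 6.49 and 6.13 in parental DU145 (-0.31 ± 0.12, adjusted p = 0.0587), without overlap. The adjusted p was 0.00392 in a fit of the DU145 groups alone, 0.0151 in DESeq2 and 0.0445 with limma on log2(FPKM + 0.1). Under the other alternatives ITGB4 did not pass in DU145, where the adjusted p reached 0.175. In PC3 it was higher and more variable, at 28.4, 30.3 and 21.7 FPKM in resistant cells and 28.8, 28.7 and 35.6 FPKM in parental cells (-0.17 ± 0.12, adjusted p = 0.274). ITGB4 shares 6225 bases with GALK1 on the opposite strand, which rose in DU145 (0.36 ± 0.10) and fell in PC3 (-0.49 ± 0.10). ITGA7, the alpha7 laminin receptor subunit of muscle, measured 0.475, 0.566 and 0.463 FPKM in resistant PC3 and 1.93, 1.65 and 1.86 FPKM in parental PC3, a 3.52-fold fall without overlap (-1.82 ± 0.19, 9.84e-07). ITGA7 overlaps METTL7B by 44 bases on the opposite strand, and METTL7B fell in both PC3 (-1.18 ± 0.15) and DU145 (-1.63 ± 0.16). In DU145 ITGA7 measured 0.468, 0.301 and 0.481 FPKM in resistant cells and 0.577, 0.548 and 0.516 FPKM in parental cells, a change that did not pass (-0.37 ± 0.19, adjusted p = 0.147).

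ITGB1, the beta1 subunit that pairs with many alpha subunits, was the most abundant of all 26 integrin subunits in each group. It measured 133, 131 and 129 FPKM in resistant DU145 and 102, 99.6 and 101 FPKM in parental DU145 (1.32-fold, log2 0.40 ± 0.03, adjusted p = 7.19e-09). Resistant PC3 held 139, 138 and 137 FPKM and parental PC3 130, 128 and 130 FPKM, a rise of 1.09-fold (0.13 ± 0.03, 0.000771). In both lines every resistant library was above every parental one. ITGB1 held 87.9% of the summed beta subunit FPKM in resistant DU145 and 84.5% in parental DU145, and 80.2% in resistant PC3 and 68.9% in parental PC3. ITGA5, the fibronectin receptor subunit alpha5, rose in both lines, averaging 22.2 ± 0.7 FPKM in resistant DU145 and 17.8 ± 0.3 in parental DU145 (0.34 ± 0.05), and 22.7 ± 1.1 in resistant PC3 and 14.4 ± 1.0 in parental PC3 (0.69 ± 0.05).

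Of alphav and its beta partners, ITGAV, ITGB3 and ITGB5 fell in PC3 and ITGB8 did not pass there, while in DU145 ITGB5 and ITGB8 rose, ITGB3 fell and ITGAV did not pass. ITGB6, another beta partner of alphav, was barely detected. ITGAV measured 9.19, 8.34 and 8.47 FPKM in resistant PC3 and 21.0, 20.9 and 22 FPKM in parental PC3, a 2.39-fold fall (log2 -1.26 ± 0.06, adjusted p = 1.07e-10). In DU145 it was level, with 20.4, 19.8 and 17.9 FPKM in resistant cells and 19.8, 19.0 and 18.3 FPKM in parental cells, which overlapped (0.05 ± 0.06, adjusted p = 0.575). ITGB5, the beta5 subunit of the vitronectin receptor, measured 4.86, 5.82 and 4.58 FPKM in resistant PC3 and 16.2, 16.9 and 17.5 FPKM in parental PC3, a 3.23-fold fall (-1.69 ± 0.08, 6.84e-11). In DU145 it rose 1.37-fold, with 9.30, 9.59 and 9.08 FPKM in resistant cells and 6.85, 6.54 and 7.39 FPKM in parental cells (0.45 ± 0.08, 0.000142). ITGB3, the beta3 subunit, fell in both lines. It measured 0.329, 0.195 and 0.232 FPKM in resistant DU145 and 2.08, 2.17 and 1.89 FPKM in parental DU145, a 7.98-fold fall (-3.00 ± 0.28, 3e-07). In PC3 it measured 0.490, 0.408 and 0.244 FPKM in resistant cells and 0.783, 0.866 and 1.0 FPKM in parental cells, a 2.26-fold fall (-1.18 ± 0.26, 0.00154). Neither pair of groups overlapped. ITGB8, the beta8 subunit that pairs with alphav and binds latent TGF-beta, was a PC3 message. It measured 1.36, 1.41 and 1.44 FPKM in resistant PC3 and 1.67, 1.26 and 1.43 FPKM in parental PC3, which overlapped (-0.01 ± 0.22, adjusted p = 1.0). DU145 held 304 ITGB8 counts over 3 resistant libraries (0.0828, 0.159 and 0.0678 FPKM) and 43 over 3 parental ones (0.0106, 0.0183 and 0.0148 FPKM), a rise at a very low level (2.84 ± 0.31, 2.22e-06) that limma on log2(FPKM + 1) did not call (adjusted p = 0.239). ITGA2B, the alphaIIb subunit of platelets and partner of beta3, rose in DU145 and fell in PC3. It measured 0.555, 0.820 and 0.878 FPKM in resistant DU145 and 0.237, 0.354 and 0.433 FPKM in parental DU145 (2.24-fold, 1.16 ± 0.27, 0.00231). In PC3 it measured 0.179, 0.106 and 0.172 FPKM in resistant cells and 2.72, 2.16 and 2.62 FPKM in parental cells (15.9-fold lower, -3.99 ± 0.30, 1.69e-08). In both lines the groups did not overlap.

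**Figure D4:**
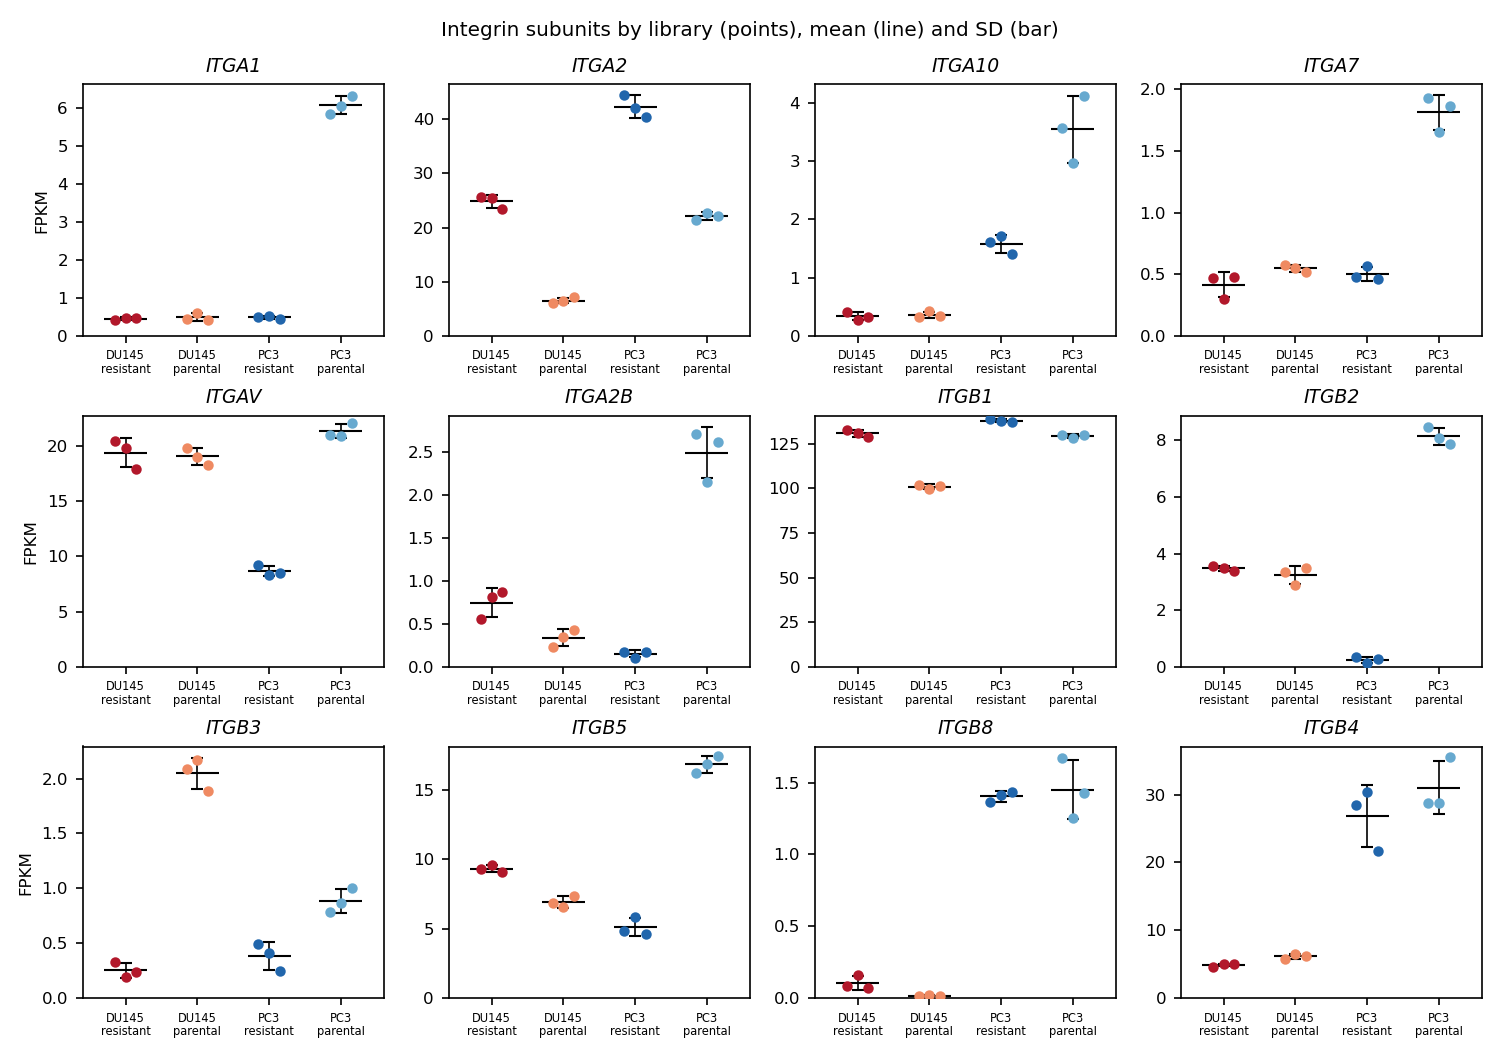
FPKM of 12 integrin subunits in each library (points), with the group mean (line) and SD (bar), in resistant and parental DU145 and resistant and parental PC3; each panel has its own axis from 0. ITGA2 is higher in the resistant libraries of both lines, whereas ITGA1, ITGAV, ITGB5 and ITGB2 are lower in resistant PC3 and differ less in DU145.

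Of the leukocyte integrins, ITGB2 and ITGAE reached several FPKM in at least 1 group. The beta2 subunit measured 0.335, 0.138 and 0.263 FPKM in resistant PC3 and 8.46, 8.08 and 7.89 FPKM in parental PC3. This 32.1-fold fall was the largest in PC3 among the integrins and laminins that reached 1 FPKM (log2 -5.01 ± 0.22, adjusted p = 3.79e-10). DU145 held 3.58, 3.48 and 3.39 FPKM in resistant cells and 3.35, 2.91 and 3.49 FPKM in parental cells, which overlapped (0.12 ± 0.18, adjusted p = 0.659). ITGB2 overlaps its antisense gene ITGB2-AS1 over 8628 bases, and the strand setting of the counting is not stated, so their reads cannot be told apart. ITGB2-AS1 averaged 0.245 FPKM in resistant PC3 and 3.72 in parental PC3 (-3.88 ± 1.04), and 1.64 in resistant DU145 and 0.179 in parental DU145 (3.20 ± 1.03). Among the alpha partners of beta2, ITGAM had 0, 0 and 11 counts in the resistant PC3 libraries and 154, 170 and 187 in the parental ones (-5.57 ± 1.3, adjusted p = 0.00399). Without the third resistant PC3 library, the group had no ITGAM counts. In DU145, ITGAM had no counts in resistant cells and 22 over the parental libraries, and its call (adjusted p = 0.0441) was lost in DESeq2 (0.0664) and without any 1 of the 3 resistant libraries or of the first 2 parental ones (0.0939 to 0.116). ITGAL, ITGAX and ITGAD, the other partners, were barely detected in every group, at 0 to 116 counts over 3 libraries. PTPRC, the defining leukocyte marker, was at or near 0 in PC3. ITGAE, the alphaE subunit that binds E-cadherin, averaged 2.75 ± 0.28 FPKM in resistant PC3 and 1.72 ± 0.13 in parental PC3 (0.71 ± 0.10, adjusted p = 2.27e-05). In DU145 ITGAE averaged 3.44 ± 0.11 FPKM in resistant cells and 3.63 ± 0.29 in parental cells, and did not pass (-0.05 ± 0.10, adjusted p = 0.756). It contains HASPIN on the opposite strand, which rose in both PC3 (1.19 ± 0.13) and DU145 (0.42 ± 0.13).

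The 11 barely detected genes were ITGA4, ITGA8, ITGA9, ITGA11, ITGAL, ITGAX, ITGAD, ITGB6, ITGB7, LAMA2 and LAMB4. Their summed counts over the 3 libraries of a group ran from 0 to 681, the highest being LAMA2 in parental DU145. ITGAL and LAMB4 were not tested and had at most 8 counts in any group. In DU145, 2 of the 11 were called, ITGAX (0 counts in resistant cells, 30 in parental cells) and ITGB7 (35 and 165 counts). In PC3, 3 were called, ITGAD (33 counts in resistant cells, 0 in parental cells), ITGB6 (101 and 0) and LAMA2 (359 and 142). LAMA2 had 142 to 681 counts in a group. The other barely detected genes had at most 229 in a group, near the lower end of what the counts can show. The variance of genes with 5 to 10 counts averaged 7.69 to 8.39 times the mean between libraries of a group. ITGB7 shares 3820 bases with the far more abundant ZNF740 on the opposite strand, and ITGAD shares 2135 bases with AC093520 on its own strand.

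The parental lines themselves differed in most of these genes. Between parental PC3 and parental DU145, 31 of the 36 genes tested passed, 20 higher and 11 lower in PC3, where 60.3% of all genes passed (30.9% higher and 29.5% lower). All 27 genes above 0.25 FPKM in a group passed. In counts scaled for edgeR, the libraries of the parental lines did not overlap for 32 of the 36 genes. By that measure, 67.7% of all genes did not overlap. LAMB1 was 31.3-fold higher in parental PC3 (15.1 ± 0.4 FPKM, against 0.499 ± 0.054 in parental DU145) and ITGA1 12.9-fold higher. ITGB4 was 5.24-fold higher in parental PC3 (31.0 ± 3.9 FPKM, against 6.12 ± 0.38). LAMB3 and LAMC1 were lower in parental PC3, by 2.26-fold and 3.23-fold. ITGAV, at 21.3 ± 0.6 FPKM in parental PC3 and 19.0 ± 0.8 in parental DU145, differed least (log2 0.21 ± 0.06, adjusted p = 0.00603), and without the third parental DU145 library this call was lost (adjusted p = 0.064).

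Set side by side, the 27 genes fell into several patterns. Passing in the same direction in both lines were 10 genes: ITGA2, ITGA5, ITGB1, LAMA1 and LAMB3 rose, and ITGB3, ITGAM, LAMA4, LAMB2 and LAMC1 fell. Among these, the calls of ITGAM and LAMA4 in DU145 and of LAMA1 in PC3 were of scarce messages. Limma on log2(FPKM + 1) made none of those calls. Passing in opposite directions were 5 genes: ITGA2B, ITGB5, LAMA5 and LAMC3 rose in DU145 and fell in PC3, and ITGA3 did the reverse. LAMB1 and ITGB8 rose and LAMA3 fell in DU145 without passing in PC3. ITGA1, ITGA6, ITGA7, ITGA10, ITGAV and ITGB2 fell and ITGAE rose in PC3 without passing in DU145. Over all genes tested, 39.6% passed in DU145 and 44.0% in PC3. How many of all genes passed in both lines was not counted, so these patterns are not read as a trait of the 27. The difference between the lines was itself tested by the interaction term, which passed for 25 of the 27 genes and for 29 of the 36 tested, where 42.1% of all genes passed (22.1% higher and 20.0% lower). Interactions of at least 1 log2 unit numbered 7 higher and 13 lower in PC3, where 21.1% of all genes had one (9.35% higher and 11.7% lower). Of the 7 higher, ITGAX, ITGAD, ITGB7 and LAMA2 were under 0.25 FPKM in every group. For LAMA1, which PC3 barely expressed, the interaction was 2.14 ± 0.31 on counts and turned to -0.39 with limma on log2(FPKM + 1). ITGB4 and ITGAM were the genes of the 27 without a call. The largest interactions among the members of both families that reached 1 FPKM were those of ITGA2B (-5.15 ± 0.40), ITGB2 (-5.13 ± 0.28) and ITGA1 (-3.52 ± 0.17), all as PC3 minus DU145.

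Lists of genes known to work with laminins and integrins were read against the same background, a median log2 change of 0 and 39.6% of genes called in DU145 and 44.0% in PC3. Among partners of laminins in the basement membrane, calls went both ways in DU145 and were mostly lower in PC3. Of 16 such genes, 7 rose and 9 fell in resistant DU145, and 2 rose, 11 fell and 3 did not pass in resistant PC3, with median log2 changes of -0.41 and -0.88. NTN4, netrin-4, which binds laminin gamma chains, measured 16.7 ± 0.6 FPKM in resistant DU145 and 0.416 ± 0.154 in parental DU145 (log2 5.34 ± 0.17, adjusted p = 1.22e-10), and did not pass in PC3 (-0.26 ± 0.13, adjusted p = 0.125). NID1, nidogen-1, which links laminin to collagen IV, rose in DU145, with 7.52 ± 0.45 FPKM in resistant cells and 0.927 ± 0.174 in parental cells (3.05 ± 0.12), and fell in PC3, with 3.65 ± 0.44 in resistant cells and 15.0 ± 0.4 in parental cells (adjusted p = 4.34e-10). HSPG2, the heparan sulfate proteoglycan perlecan, fell in both lines. It averaged 5.10 ± 0.18 FPKM in resistant DU145 and 23.0 ± 0.2 in parental DU145 (-2.15 ± 0.08), and 5.20 ± 0.31 in resistant PC3 and 104 ± 13 in parental PC3 (-4.29 ± 0.08). SPARC, a matricellular collagen-binding protein, fell to 0.248 ± 0.032 FPKM in resistant PC3, against 34.1 ± 3.1 in parental PC3 (-7.07 ± 0.56), and fell in DU145, where it averaged under 1 FPKM in both groups (-1.94 ± 0.56). The collagen IV chains COL4A1 and COL4A2 rose in DU145 (2.20 ± 0.12 and 2.17 ± 0.09) and fell in PC3 (-2.61 ± 0.11 and -2.66 ± 0.09). The other collagen IV chains, COL4A3 to COL4A6, all fell in DU145, by at least 1 log2 unit. Of these, COL4A3 and COL4A6 were scarce in DU145. COL4A3 averaged 0.0208 FPKM in resistant DU145 and 0.374 in parental DU145, and COL4A6 averaged 0.00836 and 0.198. In PC3 COL4A5 fell (-0.91 ± 0.10), COL4A6 rose (2.15 ± 0.25), and COL4A3 and COL4A4 did not pass.

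The hemidesmosome plaque and tetraspanin genes, 8 in number, were 2 higher, 4 lower and 2 not passing in DU145, and 7 higher and 1 lower in PC3, with median log2 changes of -0.15 and 0.25. PLEC, plectin, which ties beta4 to keratin filaments, averaged 62.0 ± 2.1 FPKM in resistant DU145 and 136 ± 3 in parental DU145 (-1.11 ± 0.04), but 144 ± 3 in resistant PC3 and 90.8 ± 4.1 in parental PC3 (0.70 ± 0.04). COL17A1, the transmembrane collagen of hemidesmosomes, rose in both lines, by 0.98 ± 0.15 in DU145 and 3.11 ± 0.18 in PC3, where it stayed at 0.948 FPKM in resistant cells. CD82, a tetraspanin that associates with integrins, rose in DU145 (1.16 ± 0.21) and fell in PC3 (-3.97 ± 0.24).

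Of 7 laminin receptors that are not integrins, 4 rose and 3 fell in DU145, and 4 rose, 2 fell and 1 did not pass in PC3. CD44, best known as the hyaluronan receptor, rose most in each line, with 178 ± 6 FPKM in resistant DU145 and 27.6 ± 1.2 in parental DU145 (2.71 ± 0.05), and 231 ± 7 in resistant PC3 and 32.6 ± 0.9 in parental PC3 (2.86 ± 0.05). SDC1, syndecan-1, also rose in both (1.26 ± 0.04 and 0.85 ± 0.04). DAG1, dystroglycan, which binds laminin alpha chains through its sugar chains, fell in both. It averaged 25.9 ± 0.7 FPKM in resistant DU145 and 69.7 ± 0.3 in parental DU145 (-1.40 ± 0.03), and 27.2 ± 0.4 in resistant PC3 and 49.0 ± 0.7 in parental PC3 (-0.81 ± 0.03).

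**Figure D5:**
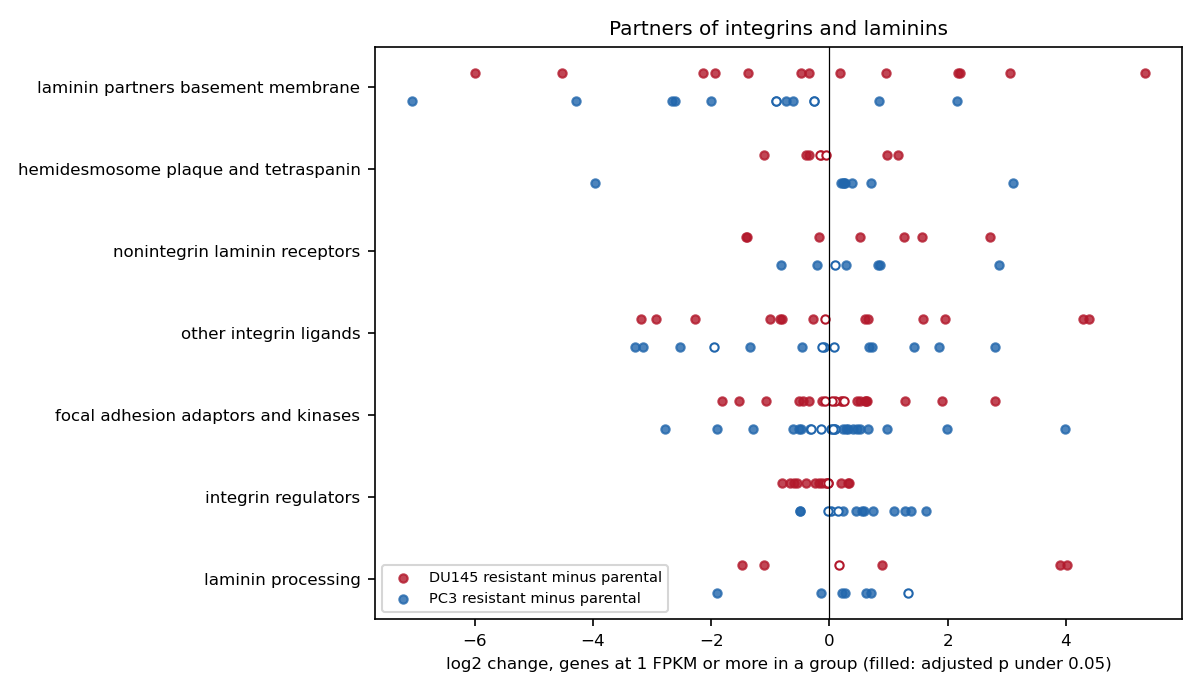
Log2 change with resistance in DU145 (red) and PC3 (blue) for genes of 7 lists of laminin and integrin partners that reach 1 FPKM in a group; each point is 1 gene, filled where the adjusted p was under 0.05, and genes without counts in a group of a line have no point there. In PC3 most basement membrane partners lie below 0 and most integrin regulators above it, and in DU145 each list spreads to both sides.

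The other ligands of integrins, 18 tested of 20, were 8 higher, 7 lower and 3 not passing in DU145, and 5 higher, 5 lower and 8 not passing in PC3. FN1, fibronectin, fell in DU145 to 1.83 ± 0.21 FPKM in resistant cells, against 17 ± 0.4 in parental cells (-3.19 ± 0.08), and also fell in PC3 (-1.34 ± 0.08). ICAM1, a ligand of beta2 integrins, rose in DU145, with 125 ± 3 FPKM in resistant cells and 32.8 ± 2.1 in parental cells (1.96 ± 0.04), and fell in PC3, with 31.9 ± 0.5 in resistant cells and 188 ± 5 in parental cells (-2.52 ± 0.04). CDH1, E-cadherin and the ligand of alphaE, likewise rose in DU145 (4.29 ± 0.31) and fell in PC3 (-3.29 ± 0.33). CCN1 and TNC, matrix proteins that bind several integrins, rose in PC3, by 2.79 ± 0.08 and 1.85 ± 0.05. In DU145 CCN1 fell (-1.01 ± 0.08) and TNC rose (0.61 ± 0.05).

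Inside the cell, the 26 focal adhesion adaptors and kinases were 11 higher, 8 lower and 7 not passing in DU145, and 10 higher, 8 lower and 8 not passing in PC3. ZYX, zyxin, fell in PC3 to 67.8 ± 3.5 FPKM in resistant cells, against 259 ± 9 in parental cells (-1.89 ± 0.05), and rose slightly in DU145 (0.21 ± 0.04). TNS4, a tensin that binds the beta1 tail, was listed at 0 in all 3 resistant DU145 libraries and averaged 4.75 ± 0.56 FPKM in parental DU145, while in PC3 it averaged 3.19 ± 0.31 in resistant cells and 0.207 ± 0.135 in parental cells (3.98 ± 0.37). Of 16 regulators of integrin activity, 4 rose, 8 fell and 4 did not pass in DU145, and 10 rose, 2 fell and 4 did not pass in PC3, with median log2 changes of -0.15 and 0.50. FLNA, filamin A, which binds beta subunit tails, rose in PC3 with 283 ± 1 FPKM in resistant cells and 119 ± 3 in parental cells (1.28 ± 0.03), and fell slightly in DU145 (-0.17 ± 0.03). Of 9 tested genes that process or fold laminin chains, 3 rose and 2 fell in DU145, and 4 rose and 3 fell in PC3. MMP14, a membrane-bound matrix protease, averaged 64.0 ± 2.0 FPKM in resistant DU145 and 4.01 ± 0.16 in parental DU145 (4.02 ± 0.05), and 47.5 ± 1.8 in resistant PC3 and 31.9 ± 0.9 in parental PC3 (0.61 ± 0.04). The endoplasmic reticulum chaperone HSPA5 fell in DU145 (-1.48 ± 0.03) and rose slightly in PC3 (0.25 ± 0.03).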

How the data were processed

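Polyadenylated RNA of 12 libraries, 3 per group, was made into dUTP-marked libraries and sequenced in pairs, per the labels' protocols. The authors deposited, for each library, a whole-number count per gene and an FPKM value per gene; the submitters' processing notes list edgeR and DESeq2 beside StringTie 1.3.4d, HISAT2 2.0.4 and cutadapt 1.9, with no order given. Each deposited FPKM equals the count multiplied by a constant of the gene and library, and 71 of 38611 genes had none. The notes name hg18, but the coordinates of all 38 genes overlap those of GENCODE release 29 on GRCh38, and 8 have the same start and end. Which program counted reads, and with what strand setting, is not given in the sources used here, so reads of overlapping genes cannot be told apart.

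Genes were filtered with filterByExpr (24128 kept) and scaled with TMM, and 1 mean per group was fitted over all 12 libraries (8 residual degrees of freedom) with edgeR 4.0.16 in R 4.3.3, with robust dispersions. Contrasts were tested with the two-sided quasi-likelihood F test and adjusted by the Benjamini-Hochberg method over all genes tested. The SE is the log2 change divided by the square root of F. The fit was tested on simulated counts for the DU145 comparison. It called 69% of true changes of 1 log2 unit and 88% of those of 2, and 5.99% of its calls were false. Alternatives were RLE scaling, DESeq2 1.42.0, no filter, each comparison's own groups alone, limma 3.58.1 on log2(FPKM + 1) and log2(FPKM + 0.1), a replicate block and leaving out each library. A fold or p is not given for genes under 0.25 FPKM in every group, a threshold set after the levels were seen. The genes given library by library were those past the test by at least 1 log2 unit in a line and at 1 FPKM or more in a group, plus ITGB1 and chains of laminin-332 and laminin-511; the library values of ITGB4 and the PC3 counts of ITGAM were added after they were seen. From each partner list, genes were taken in order of size of change, up to 3 each way, and some of these are named. COL4A3 and COL4A5 are named outside that rule. Members and lists were chosen with earlier results of these data known. KLK3 and EMCN were not analysed here, and 2 genes that the rules take are counted but not reported here.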

Additional observations from a re-analysis of the deposited data

Results flagged for a closer look

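These genes are given because their change with resistance differed between the lines by the interaction term in edgeR, at an adjusted p under 0.05. All values are log2 differences, the change in PC3 minus the change in DU145. Among laminin chains the difference was 2.94 for LAMA3, 2.14 for LAMA1, 0.34 for LAMB3, -0.33 for LAMB2, -0.38 for LAMC1 and -1.14 for LAMA5. It was -2.34 for LAMB1, -2.67 for LAMA4 and -5.65 for LAMC3. Among alpha subunits it was 0.76 for ITGAE, 0.66 for ITGA3, 0.36 for ITGA5, -0.61 for ITGA6, -0.98 for ITGA2 and -1.07 for ITGA10. It was -1.31 for ITGAV, -1.45 for ITGA7, -3.52 for ITGA1 and -5.15 for ITGA2B. Among beta subunits it was 1.82 for ITGB3, -0.27 for ITGB1, -2.14 for ITGB5, -2.85 for ITGB8 and -5.13 for ITGB2. A positive value can stand for a smaller fall in PC3 (ITGB3), a larger rise (LAMB3) or a fall in DU145 alone (LAMA3).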

How the results depend on the processing

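The number of integrin and laminin genes called stayed within 1.5 times that reported under every alternative run: 18 to 23 in DU145 (20 to 21 with 1 library left out), 23 to 27 in PC3 (23 to 25), 28 to 31 between the parental lines (27 to 32) and 27 to 29 for the interaction (27 to 30). The same held for all genes, at 9047 to 10565 in DU145 and 10176 to 11321 in PC3. Of the 27 genes above 0.25 FPKM, 20 kept their direction and side of the threshold under every alternative in DU145, 22 in PC3, 26 between the parental lines and 24 for the interaction.

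Directions that turned belonged to changes near 0 or to scarce messages. In DU145, leaving out 1 library moved ITGA1 over -0.19 to 0.11 and ITGA10 over -0.23 to 0.063. In PC3, ITGB8 ran from -0.098 to 0.0999 without 1 library. The interaction of ITGAM was -0.38 with DESeq2, -0.50 and -2.11 with limma on log2(FPKM + 1) and log2(FPKM + 0.1), and -4.55 to 0.89 with 1 library left out. That of LAMA1 was -0.39 and -0.12 with limma at these pseudocounts. The cause was not tested. Low counts varied more between libraries than independent counts would, with a variance averaging 7.69 to 8.39 times the mean at 5 to 10 counts.

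Libraries with the same replicate number did not deviate together, and not every library correlated best with its own number. The main fit did not pair samples by number. With 3 libraries per group, each centred on the group mean, these correlations cannot show whether libraries of equal number were prepared together. With the replicate block, 22 integrin and laminin genes were called in DU145, 24 in PC3, 28 between the parental lines and 27 for the interaction. The block also brought the DU145 change of ITGA6 past the threshold (adjusted p = 0.0337). In that blocked fit ITGB8 in PC3 was 0.00094 and the interaction of ITGAM -0.65.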
